A study of Mus musculus with 3 samples.

Results

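Selp, Thbs1, Srgn, Mmrn1, Tgfb1, Pdgfa, Pdgfb, Clu, Sparc and Vegfa encode proteins that platelets store in their alpha granules. They were taken as a group by that role, with earlier results of these data known. They are 10 of the 22367 protein-coding genes in the mm9 annotation, and all 10 were found there. FLI1 and RUNX1 binding around these genes was read from ChIP-seq of mature megakaryocytes (MKs), the large marrow and fetal liver cells that release platelets. The cells came from wild-type CD1 mouse fetal livers and were grown for 5 days in thrombopoietin, with other blood lineages depleted by antibody and the large cells enriched on albumin gradients. The sample labels give E15 as the age of the livers and the methods E14. There are 3 libraries: 1 made with a FLI1 antibody, 1 with a RUNX1 antibody and 1 of input, chromatin taken without an antibody step. DNA of at least 3 replicates was pooled for sequencing, the labels describe sonicated chromatin, and the methods describe micrococcal nuclease for the input. Reads were also 50 bp long in both ChIP libraries and 34 bp in input. Every ratio to input may hold a difference in fragmentation or read length, whose part was not tested. With 1 library per antibody no test between libraries was possible, so every interval below is a 95% interval for counting error only.

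After removal of mitochondrial reads and repeated input positions, 62946422 FLI1, 3973856 RUNX1 and 21745220 input reads were counted. A 400-bp bin held 13.5 FLI1 reads, 0.850 RUNX1 reads and 4.65 input reads at the genome-wide mean, so a RUNX1 difference at a single site rests on few reads. The RUNX1 file used here holds far fewer reads than the study lists for its RUNX1 ChIP. What makes up the difference was not tested, so low RUNX1 counts below describe this file alone. For every 100 plus-strand RUNX1 reads on chromosome 1 there were 30.3 minus-strand reads at fragment distance and 13.4 in a span of equal width farther off. Reads at fragment distance can be the opposite ends of a single fragment, and where they are, the counting intervals are too narrow. The cell type was checked on FLI1 reads within 2 kb of transcription start sites (TSS), as the ratio of FLI1 to input reads, each divided by the reads counted in its library. It was 2-fold or more at 7 of 12 MK markers (median 2.45), at 1 of 8 endothelial or stromal genes (median 1.05) and at 0 of 12 genes of tissues outside blood (median 0.694). The RUNX1 medians fell in the same order, but its counts at the 2-fold limit did not, with 2-fold or more at 1 of 12 MK markers (median 1.59), 3 of 8 endothelial or stromal genes (median 1.19) and 0 of 12 genes outside blood (median 0.948). Of all genes that could be scored, 25.2% were at 2-fold or more for FLI1 and 16.7% for RUNX1. No list was chosen to mark other blood lineages, so the check cannot tell MKs from other blood cells. The study also counts some of the endothelial or stromal genes among those that rise as MKs mature. The ratios are binding values and not RNA levels.

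Alpha granules are the most abundant secretory organelles of platelets. MKs fill them with proteins they make themselves and with proteins they take up from plasma, and platelets release or expose the contents when they are activated. FLI1 is a transcription factor of the ETS family, which binds DNA around a GGAA core, and RUNX1 binds the core of the RUNX motif. Loss of either lowers platelet numbers. A territory below means a gene record with 20 kb on either side. A bin of 400 bp was called FLI1-rich when it held at least 5 reads and at least 3-fold more than the highest of its own input, the input of the 2 kb around it and the genome-wide mean, all scaled to the FLI1 depth. RUNX1-rich bins followed the same rule. A run of adjacent FLI1-rich bins is called a FLI1 site, and its summit is where most FLI1 reads, drawn out to fragment length, overlapped. Sites were thus chosen by FLI1 reads over input, so FLI1 ratios and intervals at a summit are no test of an excess.

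The territories of the 10 genes held 62 FLI1-rich bins among 1650 (3.76%), beside 0.641% of the bins in the territories of all protein-coding genes. Tgfb1 had 17 of them, Srgn 15, Thbs1 13 and Selp 7. Mmrn1, Pdgfb and Clu had 3 each and Vegfa 1. Pdgfa and Sparc had none at these settings. At least 1 FLI1-rich bin was thus present at 8 of 10 members, where 60.3% of all genes have at least 1. The share of a territory called FLI1-rich placed Tgfb1 at the 99.9th percentile of all genes, Thbs1 at the 99.7th, Srgn at the 99.5th and Selp at the 93.6th. Part of the Thbs1 share lies in a gene body with raised FLI1 reads between its sites, described below. Clu stood at the 83.1st percentile, Pdgfb at the 81.3rd, Mmrn1 at the 65.9th and Vegfa at the 53.4th, and Pdgfa and Sparc at 0. Some FLI1-rich bins of the Tgfb1, Srgn and Selp territories lie at or within neighboring genes, as given below. Territories of other genes can hold neighbors as well.

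**Figure D1:**
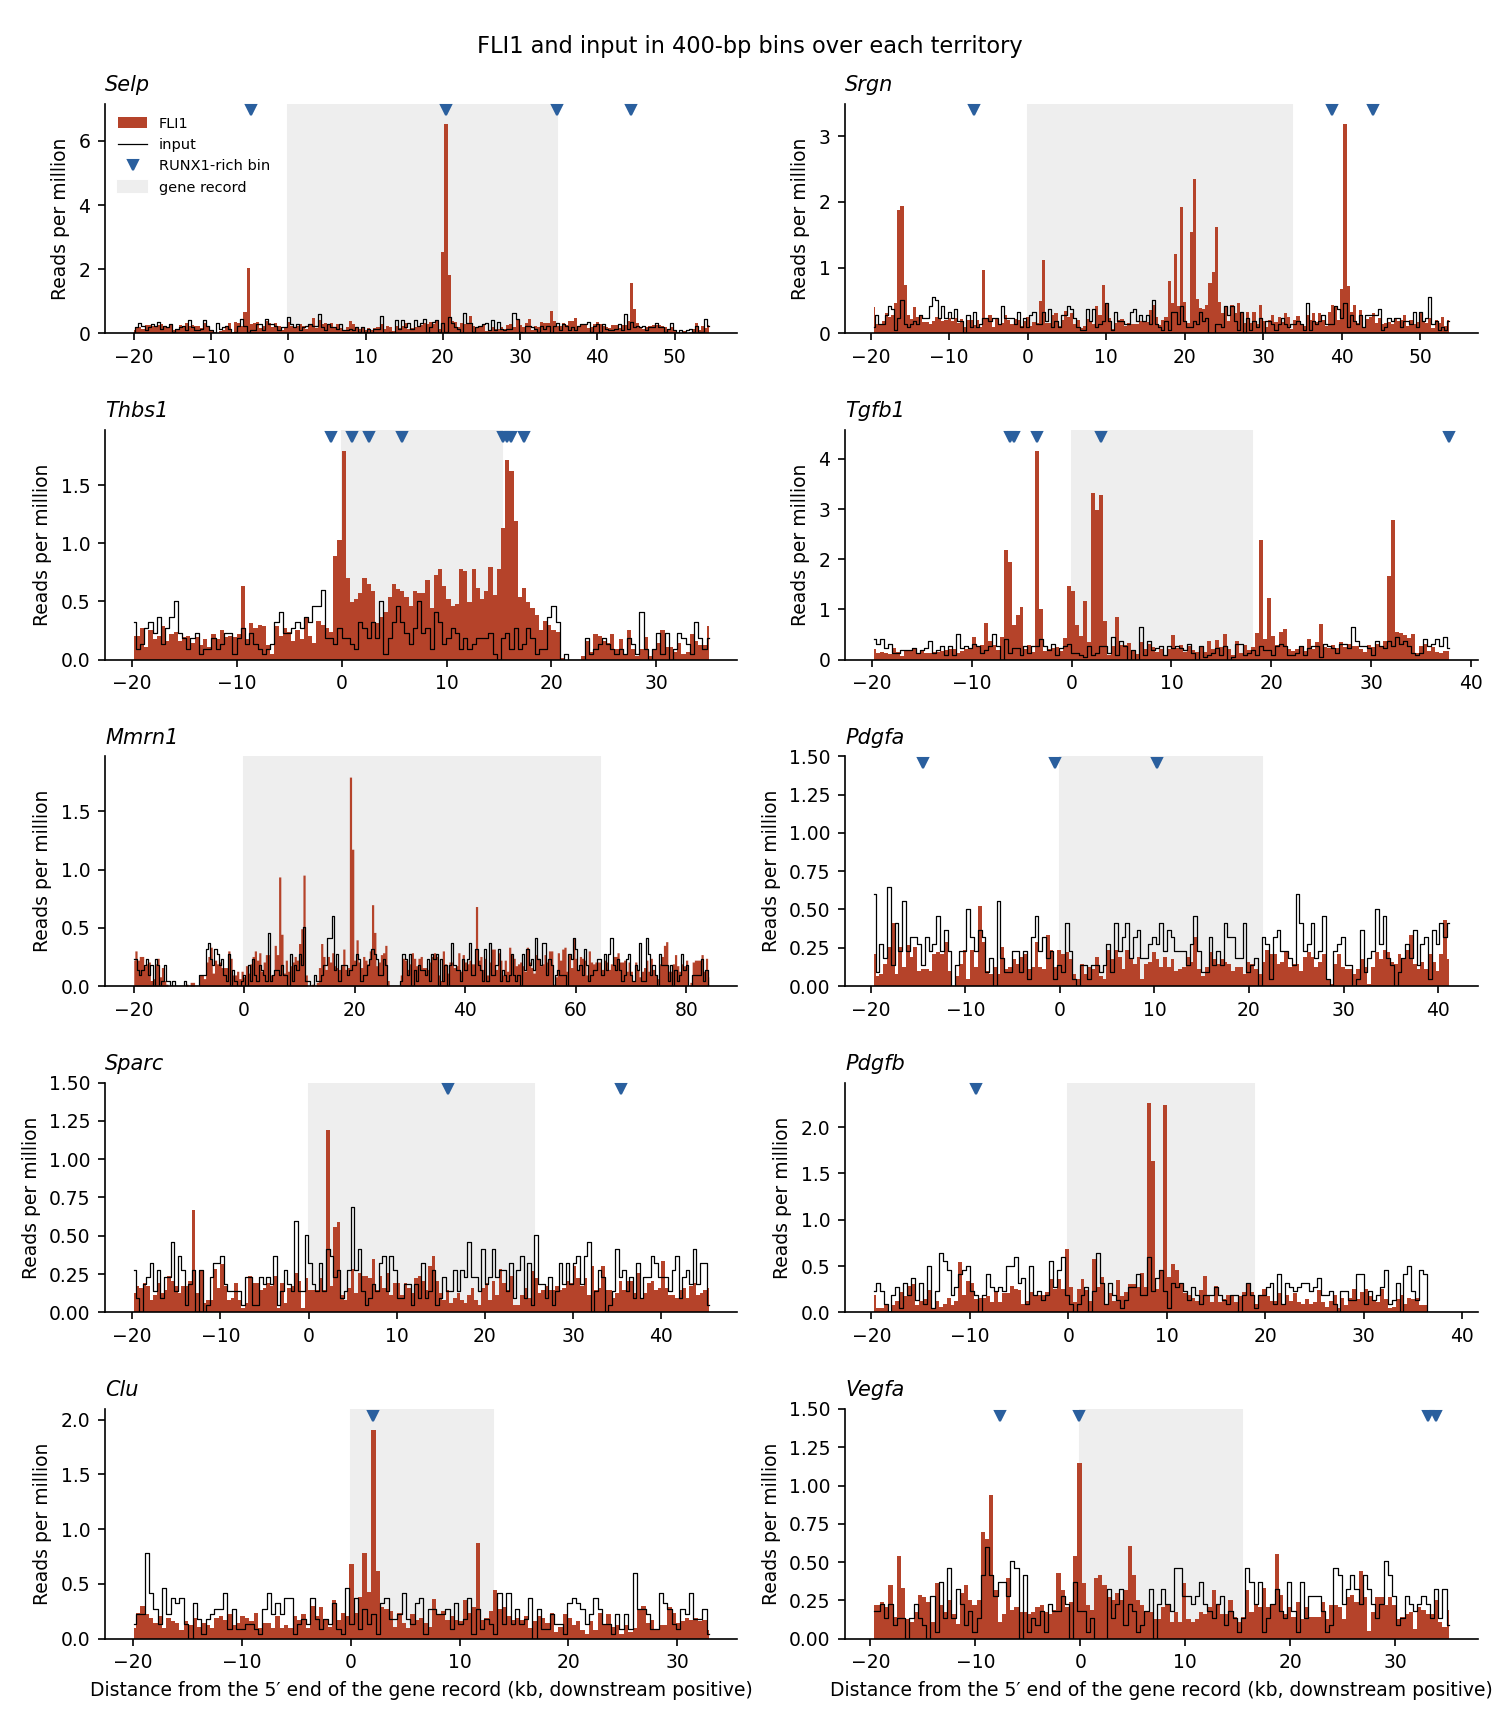
FLI1 (filled) and input (line) in depth-scaled reads per 400-bp bin, plotted by distance in kb from the 5′ end of the gene record, with the record shaded and RUNX1-rich bins marked by triangles. Each panel has its own vertical scale; the intronic Selp bin reaches 410 FLI1 reads (6.51 on the scaled axis), whereas the highest Pdgfa bin holds 33 reads.

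At 7 of the 8 genes with FLI1-rich bins, the site with most FLI1 reads lay more than 2 kb from the 5′ end of the gene record, with Vegfa as the exception. For Thbs1 this rests on 122 reads beyond the gene against 118 at the start, which counting error does not separate. The top sites of Mmrn1, Clu and Srgn lay 60, 81 and 1308 bp from another annotated start of the same gene. That of Tgfb1 lay in an intron of the neighbor B9d2. The count thus depends on the start used, and the same share over all genes was not computed. Within 2 kb of the record's 5′ end, FLI1 was 2-fold or more over input at Tgfb1, Thbs1, Vegfa and Mmrn1, which is 4 of 10 members beside 25.2% of the 21877 genes that could be scored. The median of the members was 1.61 and that of all genes 1.26. At the annotated transcript start with most FLI1 reads, 6 members reached 2-fold, with Srgn and Clu added, beside 26.8% of all genes. Picking the start by its FLI1 reads favors a higher count, more so for genes with many annotated starts, and the 2 sets were not matched for that number. RUNX1 was 2-fold or more at 5 members, Thbs1, Mmrn1, Tgfb1, Pdgfa and Vegfa, beside 16.7% of all genes, but these ratios rest on 8 to 23 RUNX1 reads. Against the genome-wide mean in place of input, 1 member stayed at 2-fold for RUNX1, Thbs1 at 2.71, and 2 for FLI1, Thbs1 at 3.19 and Tgfb1 at 3.10.

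**Figure D2:**
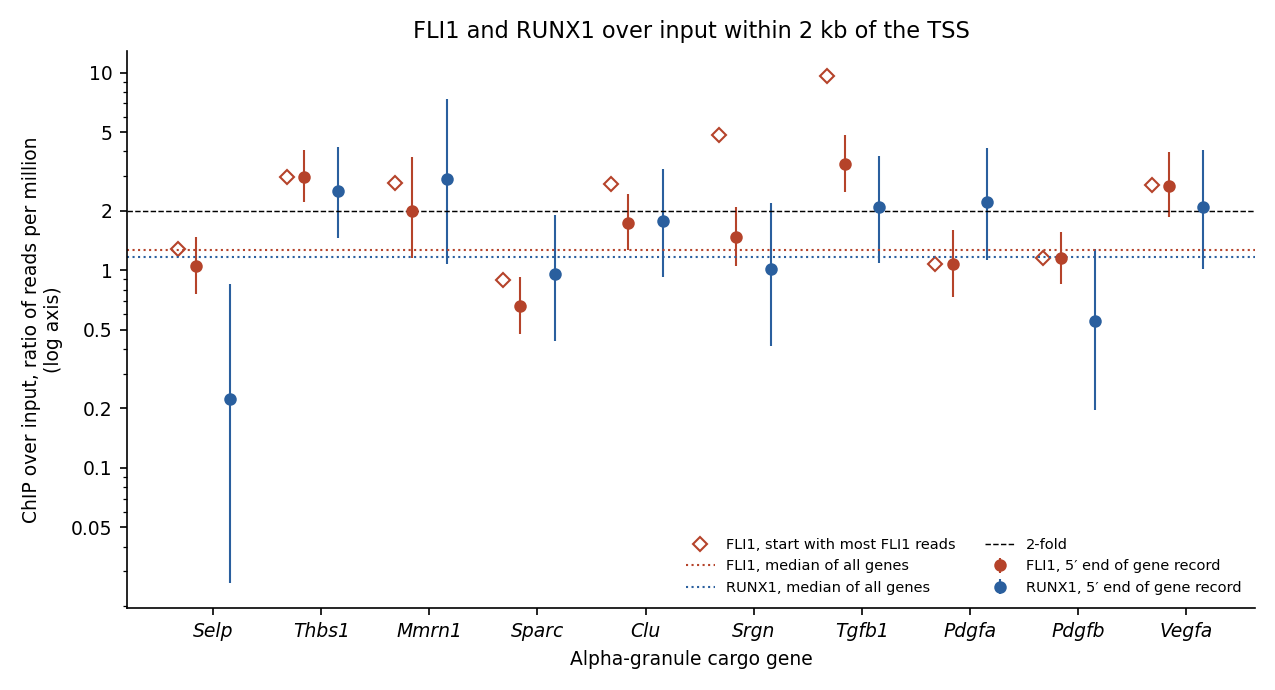
Ratio of depth-scaled ChIP to input reads within 2 kb of the TSS for each gene (log axis), FLI1 in red and RUNX1 in blue, with 95% counting intervals; open diamonds give FLI1 at the transcript start with most FLI1 reads. Tgfb1 moves from 3.44 to 9.63 and Srgn from 1.47 to 4.85 between the starts, and RUNX1 intervals are wide throughout.

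Selp encodes P-selectin, the adhesion receptor that activated platelets bring from the granule membrane to their surface. At its 5′ end (chr1:166045395 on the plus strand) the windows held 149 FLI1, 2 RUNX1 and 49 input reads. FLI1 was therefore at 1.05 times input (0.756 to 1.48, 38.1st percentile) and RUNX1 at 0.223 times (0.0263 to 0.851), so neither factor was above input at this 5′ end. A coding transcript, Selp-201, starts 8438 bp downstream, and there FLI1 was at 1.59 times input (1.04 to 2.50) and RUNX1 at 1.82 times (0.755 to 4.00). At the 4 starts of transcripts without a coding label further in, FLI1 ranged from 0.784 to 1.64 times input. The FLI1 reads of this gene instead gathered 20323 bp downstream, in intron 8 of 16-exon transcript Selp-001 (chr1:166064184-166067234). In 400 bp around that summit there were 466 FLI1, 10 RUNX1 and 4 input reads, and FLI1 exceeded input 40.2-fold (15.6 to 148). This site ranked 5th by FLI1 reads among the 17867 FLI1 sites in the territories of all protein-coding genes. Of those sites, 99.0% held fewer RUNX1 reads than the 10 counted here, which are 11.8 times the genome-wide mean (5.64 to 21.6) and lay 3 on the plus and 7 on the minus strand. Within 75 bp of the summit, 192 of 302 possible read positions (63.6%) were taken in a file that holds each position once, so the count is compressed at the top. For Selp the study lists FLI1, RUNX1 and NF-E2 peaks at similar distances from the start it used, shorter than the 20323 bp given here. The 50 bp to either side of the summit, on the plus strand of mm9 (chr1:166065668-166065768), are shown because they carry the strongest FLI1 site of the group, with ETS and RUNX words in capitals.
Selp intron 8: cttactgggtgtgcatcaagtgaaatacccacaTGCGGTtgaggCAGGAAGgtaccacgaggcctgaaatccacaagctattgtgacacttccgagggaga
The ETS word CAGGAAG is centered 3 bp from the summit and the RUNX word TGCGGT lies 5 bases before it. A further site 5311 bp upstream of Selp held 138 FLI1, 1 RUNX1 and 3 input reads. A weaker site in the last exon held 48, 0 and 1. The 4th site of the territory, with 121 FLI1, 6 RUNX1 and 2 input reads, lies in intron 2 of the neighbor F5, which encodes coagulation factor V, another alpha-granule protein. The paralog Sele, which encodes the endothelial adhesion receptor E-selectin, had FLI1 at 0.691 times input at its start.

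Thbs1 encodes thrombospondin 1, an adhesive glycoprotein that is among the most abundant alpha-granule proteins. Its start (chr2:117937612, plus strand) had 430 FLI1, 23 RUNX1 and 50 input reads within 2 kb. FLI1 stood at 2.97 times input (2.21 to 4.07, 90.6th percentile) and RUNX1 at 2.52 times (1.47 to 4.20, 92.0th percentile). Within 1 kb FLI1 was at 4.95 times input (3.18 to 8.12). Both factors were thus above input at this start, and Thbs1 had the most RUNX1 reads of the 10 genes within 2 kb of the record start. The FLI1 summit lay 29 bp past the start, in exon 1, with 118 FLI1, 0 RUNX1 and 3 input reads in 400 bp. RUNX1 was rich in 8 bins of the territory, the most of any member. The bin centered 0.989 kb past the start held 9 RUNX1 and 31 FLI1 reads, and the bin at 2.59 kb held 7 and 41. The strongest joint site lay 16013 bp past the start and beyond the gene end, with 122 FLI1, 11 RUNX1 and 3 input reads. RUNX1 there was 12.9 times the genome-wide mean (6.46 to 23.2), with 8 reads on the plus and 3 on the minus strand. This site was picked for its RUNX1 reads, and the interval does not allow for that choice. Its sequence (chr2:117953575-117953675, plus strand) is shown because it had most RUNX1 reads of all sites around the 10 genes and yet holds none of the words searched for ETS, RUNX, GATA or NF-E2, so it has no capitals.
Thbs1 downstream: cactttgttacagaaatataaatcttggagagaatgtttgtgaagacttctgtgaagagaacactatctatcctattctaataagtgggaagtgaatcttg
Between its sites, the Thbs1 body differed from those of the other members. With the FLI1-rich bins left out, the 31 remaining bins of the body held 1086 FLI1, 76 RUNX1 and 160 input reads. That is 2.34 times input for FLI1 (1.98 to 2.79, 99.0th percentile of all genes) and 2.60 times for RUNX1 (1.95 to 3.44, 98.1st percentile). In the flanks of Thbs1 the corresponding ratios were 1.09 and 1.16. Relative to input, both antibodies gave more reads over this gene body than over its flanks, and what produces that was not tested. Bodies of the other 9 members ranged from 0.657 to 1.34 for FLI1 and from 0.886 to 1.38 for RUNX1. Rich bins were not called against the raised level of the Thbs1 body, and their number there is not corrected for it. At a 5-fold limit, 4 of the 13 FLI1-rich and 7 of the 8 RUNX1-rich bins of the Thbs1 territory remained. Over all members 28 of 62 FLI1-rich bins did. Of the paralogs, FLI1 was at 0.867 times input at the Thbs2 start, 1.58 at Thbs3 and 1.30 at Thbs4.

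Mmrn1 encodes multimerin 1, a large soluble protein that binds factor V in the granule. The record's 5′ end (chr6:60874970, plus strand) belongs to a retained-intron transcript, and had 87 FLI1, 8 RUNX1 and 15 input reads. FLI1 was at 2.00 times input (1.15 to 3.73), beside input reads well under the genome-wide mean of 46.5 for such a window, and these FLI1 reads are 0.646 times their own genome-wide mean. The start of the coding transcript, 19500 bp downstream, had 297 FLI1, 6 RUNX1 and 37 input reads, giving 2.77 for FLI1 (1.97 to 4.02) and 0.887 for RUNX1 (0.306 to 2.12). The FLI1 summit lay 60 bp before that coding start, with 152 FLI1, 1 RUNX1 and 3 input reads in 400 bp. The sequence at that summit (chr6:60894360-60894460, plus strand) is shown because it packs 3 words into a short stretch, marked by capitals.
Mmrn1 coding start: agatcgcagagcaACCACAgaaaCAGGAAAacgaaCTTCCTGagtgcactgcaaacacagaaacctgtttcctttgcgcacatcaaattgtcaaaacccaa
ACCACA is the RUNX word TGTGGT read on the other strand, and CTTCCTG is likewise the ETS word CAGGAAG. With a single RUNX1 read here, a RUNX1 signal was not detectable at this depth. The territory had no RUNX1-rich bin, whereas 50.8% of all genes have at least 1. That absence depends on the bins, since Mmrn1 had 2 RUNX1-rich bins with the grid moved by 200 bp, where Pdgfb had 0, and 5 with at least 4 reads required. The paralogs Mmrn2, Emilin1 and Emilin2 had FLI1 at 0.846, 2.46 and 1.11 times input.

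Sparc encodes osteonectin, a collagen-binding matrix protein. Its start (chr11:55233582, minus strand) had 109 FLI1, 10 RUNX1 and 57 input reads. FLI1 was below input at 0.661 times (0.475 to 0.927), the lowest of the 10, and RUNX1 was at 0.960 times (0.437 to 1.90). In 1 random thinning of FLI1 to the RUNX1 depth, the FLI1 value was 0.288 (0.0577 to 0.885), an interval that includes 0.661. Within 1 kb FLI1 was at 0.512 times input (0.306 to 0.867). Without the read shift it was at 0.729 (0.524 to 1.02), and at the start with most FLI1 reads at 0.891 (0.661 to 1.22). FLI1 below input at Sparc thus depends on the setting. RUNX1 within 1 kb was at 0.405 times (0.0467 to 1.61), an interval that includes 0.960. A bin 2.18 kb into Sparc came close to the limit for a FLI1-rich bin, with 75 FLI1 reads and 2.88-fold. The study lists its FLI1 peak nearest to the Sparc start at a similar distance. Sparc had 4 FLI1-rich bins at a 2-fold limit, 1 with 200-bp bins and 2 against the genome-wide mean alone. It had 0 at a 5-fold limit, with 800-bp bins or with the grid moved by 200 bp. The 2 RUNX1-rich bins of the Sparc territory held 5 RUNX1 reads each and 13 and 9 FLI1 reads, so they did not coincide with FLI1. Sparcl1 had 0.856 times input for FLI1.

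Clu encodes clusterin, a secreted chaperone. Within 2 kb of its record start (chr14:66587320, plus strand) there were 232 FLI1, 15 RUNX1 and 46 input reads, with FLI1 at 1.74 times input (1.27 to 2.45) and RUNX1 at 1.78 times (0.925 to 3.25). Several coding transcripts of Clu begin further in, and the start at 1235 bp had 365, 19 and 46 reads, a FLI1 ratio of 2.74 (2.01 to 3.81). The strongest site of the gene lay 2240 bp past the record start, in intron 1 of Clu-001 and 81 bp before the nearest transcript start. It had 144 FLI1, 6 RUNX1 and 4 input reads. RUNX1 there was 7.06 times the genome-wide mean (2.59 to 15.4), and the bin is rich in both factors. The window has AGATAA near the summit and none of the ETS words searched, although it holds the GGAA core. The site at the record start was much weaker, with 43 FLI1 reads, and holds TGAGTCA, the only NF-E2 word among the sites of the 10 genes.

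Srgn encodes serglycin, the proteoglycan core protein that retains basic cargo in granules. At the 5′ end of the record (chr10:61990199, minus strand) the library counts were 183 FLI1, 8 RUNX1 and 43 input, giving 1.47 times input for FLI1 (1.05 to 2.10) and 1.02 for RUNX1 (0.413 to 2.19). Within 1 kb the FLI1 value was 0.832 (0.498 to 1.44), so FLI1 above input at this end depends on the window. Coding transcripts also begin further downstream, and the start 19696 bp in (chr10:61970503) had 618 FLI1, 16 RUNX1 and 44 input reads. FLI1 was 4.85 times input there (3.57 to 6.75) and RUNX1 1.99 times (1.05 to 3.60). FLI1 binding at Srgn was therefore concentrated at the internal starts. Summits with 208, 120, 72 and 65 FLI1 reads followed each other there, from 1308 bp past to 1260 bp before the nearest Srgn start. These 4 sites had 1, 1, 2 and 1 RUNX1 reads. The highest one, in the intron that follows (chr10:61960672-61970389), is shown (chr10:61969145-61969245, plus strand) because its ETS word, in capitals, starts at the summit itself.
Srgn intron: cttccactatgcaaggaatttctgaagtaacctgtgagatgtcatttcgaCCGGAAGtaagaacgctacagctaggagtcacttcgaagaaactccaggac
A site in the same intron, 4231 bp past the nearest start, held 108 FLI1, 4 RUNX1 and 1 input reads. The site with 201 FLI1 reads, 2 RUNX1 reads and 10 input reads lies 225 bp from the start of the neighbor Vps26a, and the one with 144 FLI1 reads in an intron of 2510003E04Rik, so neither lies in Srgn, although Srgn has the nearest annotated start to the second of them. The 3 RUNX1-rich bins of the Srgn territory held 5 RUNX1 reads each, and none was FLI1-rich.

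Tgfb1 encodes the latent growth factor TGF-β1, of which platelets are a major store. Its start (chr7:26472021, plus strand) had 418 FLI1, 16 RUNX1 and 42 input reads. FLI1 was 3.44 times input (2.50 to 4.84), the highest of the 10 at the record start, and RUNX1 2.08 times (1.09 to 3.79). The start of a transcript labelled nonsense-mediated decay, 1925 bp further in, had 920 FLI1, 21 RUNX1 and 33 input reads. That is 9.63 times input for FLI1 (6.81 to 14.1) and 3.48 times for RUNX1 (1.91 to 6.20). Tgfb1 thus had the highest FLI1 ratio of the group at any start. The territory held 10 FLI1 sites, 4 of them within 2 kb of a Tgfb1 transcript start. The site in intron 1 of Tgfb1-001, 2820 bp past the start, had 280 FLI1, 9 RUNX1 and 5 input reads and ranked 247th of 17867. RUNX1 there was 10.6 times the genome-wide mean (4.84 to 20.1), with 5 reads on the plus and 4 on the minus strand. An upstream site 3281 bp before the start had 286 FLI1, 6 RUNX1 and 7 input reads and ranked 216th. It lies inside intron 2 of the neighbor B9d2, 2563 bp from the B9d2 start. A site 18913 bp past the start, beyond the gene end, had 150 FLI1, 0 RUNX1 and 4 input reads. Their windows (chr7:26474791-26474891, chr7:26468690-26468790 and chr7:26490884-26490984, plus strand) are set side by side because each has an ETS word, in capitals, whereas their RUNX1 counts differ.
Tgfb1 intron 1: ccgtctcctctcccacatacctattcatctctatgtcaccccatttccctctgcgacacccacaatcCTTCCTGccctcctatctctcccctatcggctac
Tgfb1 upstream: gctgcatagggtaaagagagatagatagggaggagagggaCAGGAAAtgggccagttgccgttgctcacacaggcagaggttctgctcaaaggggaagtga
Tgfb1 downstream: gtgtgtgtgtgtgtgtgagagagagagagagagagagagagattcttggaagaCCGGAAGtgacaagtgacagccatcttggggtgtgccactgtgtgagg
None of these 3 windows has a RUNX word. The sites with 205 and 68 FLI1 reads at the B9d2 start and with 241 FLI1 reads at the Ccdc97 start lie nearer to those genes. The paralogs Tgfb2 and Tgfb3 had FLI1 at 1.20 and 0.857 times input.

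Pdgfa and Pdgfb encode the A and B chains of platelet-derived growth factor and differed in FLI1. The Pdgfa start (chr5:139473324, minus strand) had 115 FLI1, 15 RUNX1 and 37 input reads. FLI1 was level with input at 1.07 times (0.736 to 1.60) and RUNX1 was at 2.22 times (1.13 to 4.14). A RUNX1-rich bin centered close to the Pdgfa start held 6 RUNX1 reads, 8 FLI1 reads and 1 input read, so that RUNX1 count came without FLI1. Pdgfa had no FLI1-rich bin in 61.2 kb, and its highest bin of 33 FLI1 reads was at 1.43-fold. The Pdgfb start (chr15:79845238, minus strand) had 197 FLI1, 6 RUNX1 and 59 input reads, with FLI1 at 1.15 times (0.858 to 1.57) and RUNX1 at 0.556 times (0.196 to 1.28). Within 1 kb of that start FLI1 was higher, at 1.87 times (1.15 to 3.17), and RUNX1 at 1.37 times (0.401 to 3.76). The 2 FLI1 sites of Pdgfb were intronic. In intron 1, 8395 bp past the start, there were 212 FLI1, 3 RUNX1 and 12 input reads, and in intron 2, 9954 bp past the start, 137 FLI1, 2 RUNX1 and 2 input reads. Both windows (chr15:79836793-79836893 and chr15:79835234-79835334, plus strand of mm9) are shown because the first has a RUNX word and no ETS word and the second an ETS word at the summit.
Pdgfb intron 1: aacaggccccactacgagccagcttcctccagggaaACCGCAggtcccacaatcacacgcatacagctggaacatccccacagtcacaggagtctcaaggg
Pdgfb intron 2: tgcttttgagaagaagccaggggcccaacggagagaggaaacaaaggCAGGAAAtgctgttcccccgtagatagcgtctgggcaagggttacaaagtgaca
The RUNX word of the first stands beside 3 RUNX1 reads, 3.53 times the genome-wide mean (0.728 to 10.3), an interval that includes the mean. The only RUNX1-rich bin of Pdgfb lay upstream and held 5 RUNX1 and 9 FLI1 reads. The paralogs Pdgfc and Pdgfd had FLI1 at 1.54 and 1.13 times input.

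Vegfa encodes vascular endothelial growth factor A, an angiogenic factor that platelets release. Its start (chr17:46169326, minus strand) had 264 FLI1, 13 RUNX1 and 34 input reads, with FLI1 at 2.68 times input (1.87 to 3.96) and RUNX1 at 2.09 times (1.01 to 4.07). The single FLI1 site was at the start itself, 11 bp in and within exon 1, with 69 FLI1, 5 RUNX1 and 4 input reads in 400 bp. No searched word was found in its window. The same bin was RUNX1-rich, and the other 3 RUNX1-rich bins of the Vegfa territory held 7 to 16 FLI1 reads. The related genes Vegfb, Vegfc, Figf and Pgf had FLI1 at 0.643, 1.34, 0.820 and 0.656 times input.

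The 8 genes with FLI1 sites had 37 of them in all. Of these, 16 lay within 2 kb of a transcript start of the member itself, 4 within 2 kb of the start of another gene, 10 in further introns, 2 in further exons and 5 between genes. FLI1 reads in 400 bp ranged from 43 to 466 with a median of 108, beside a median of 84 over all 17867 sites. In 36 of the 37, the median minus-strand read lay to the right of the median plus-strand read, by a median of 100 bp, which is the arrangement that reads from both ends of a bound fragment give. The exception was a Thbs1 site 12585 bp past the start with 48 FLI1 reads, where the distance was −1 bp. Summits were placed from reads drawn out to fragment length, which itself favors that arrangement, so it is no separate evidence of binding.

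An ETS word was CAGGAA, or the same with its second base changed to give CCGGAA, followed by A or G, on either strand. Such a word was found within 50 bp of the summit at 17 of the 37 sites, which is 45.9%. The share was 57.1% over all FLI1 sites, 15.3% in windows of the same length at all TSS and 7.40% in windows 2 kb to either side of FLI1 sites. With 37 sites behind it, the lower share at these genes is not read as a difference from FLI1 sites in general. A window without an ETS word can still hold the GGAA core, as the Clu intron 1, Thbs1 downstream, Vegfa and Pdgfb intron 1 windows do. Among all sites the share went up with reads, from 45.9% of sites under 60 FLI1 reads to 52.8% from 60 up to 100, 66.6% from 100 up to 200 and 77.3% at 200 or more. The members followed the same order with few sites, at 3 of 8, 4 of 10, 5 of 11 and 5 of 8. A RUNX word, TGTGGT or the relative printed for Selp, was present at 4 of 37 sites (10.8%, beside 17.6% of all sites). A GATA word, AGATAA or the related form that begins with TGATAA, was present at 5 (13.5%, beside 12.8%) and an NF-E2 word, TGAGTCA or its complement, at 1 (2.70%, beside 4.39%). Both an ETS and a RUNX word occurred at 2 of the 37 (5.41%, beside 9.87%), and those are the Selp intron 8 and Mmrn1 coding start windows printed above.

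**Figure D3:**
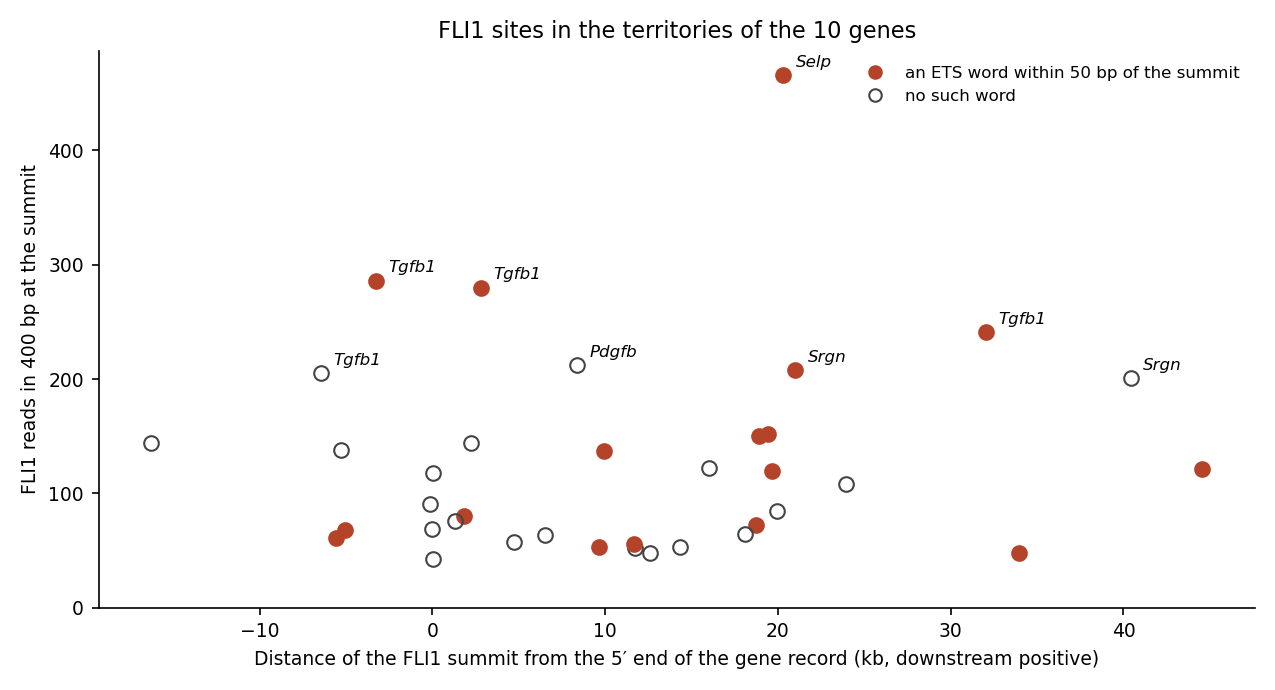
FLI1 reads in the 400 bp around each of the 37 summits (vertical axis) against distance in kb from the 5′ end of the gene record (horizontal axis), filled where an ETS word lies within 50 bp of the summit. Sites of 200 or more reads carry the name of their territory; Selp intron 8 stands at 466 reads, and the next highest, of Tgfb1, at 286.

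RUNX1 reads were denser where FLI1 was rich. The 62 FLI1-rich bins held 138 RUNX1 reads (5.56 per kb) and the other 1588 bins 1412 (2.22 per kb), a ratio of 2.50 (2.09 to 2.98). Input gave 0.989 (0.874 to 1.12), but input enters the calling of FLI1-rich bins, so that value is no control for the RUNX1 difference. Over all protein-coding genes the RUNX1 ratio was 3.34 (3.31 to 3.37), with 5.50 reads per kb in FLI1-rich bins and 1.64 elsewhere. The members were thus close to all genes inside FLI1-rich bins and higher outside them, where their input was also higher, at 11.3 against 9.51 reads per kb. By gene, the ratio was 4.86 at Vegfa (1.55 to 11.6), which rests on 5 RUNX1 reads in 1 bin, 4.12 at Selp (2.59 to 6.31), 2.83 at Clu (1.11 to 6.05), 2.17 at Tgfb1 (1.50 to 3.10) and 1.86 at Thbs1 (1.21 to 2.76). At Srgn it was 1.24 (0.731 to 2.00), an interval that includes equality, although Srgn had 15 FLI1-rich bins. The intervals of Mmrn1 and Pdgfb also included 1, with 5 and 6 RUNX1 reads.

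RUNX1-rich bins numbered 31 of the 1650 (1.88%, beside 0.402% of bins over all genes), and 10 of them were also FLI1-rich. The 10 are 16.1% of the FLI1-rich and 32.3% of the RUNX1-rich bins of the members, beside 11.2% and 17.9% over all genes. They lay 3 at Thbs1, 3 at Tgfb1, 2 at Selp and 1 each at Clu and Vegfa. A RUNX1-rich bin was present at 9 of 10 members, beside 50.8% of all genes, but 5 reads already stand at 5.88 times the genome-wide mean. With 7 reads required, 7 bins passed (0.424%, beside 0.0476% over all genes), 4 at Thbs1, 2 at Tgfb1 and 1 at Selp. For a comparison at equal depth, FLI1 was thinned to the number of RUNX1 reads, which left 50 FLI1-rich bins (3.03%, beside 0.518% over all genes) next to the 31 RUNX1-rich bins. Tgfb1 then had 13, Srgn 11 and Thbs1 9, so these 3 genes stayed ahead. Selp and Pdgfb were level at 5, Pdgfb from 3 before thinning, and Sparc had 2 after none.

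**Figure D4:**
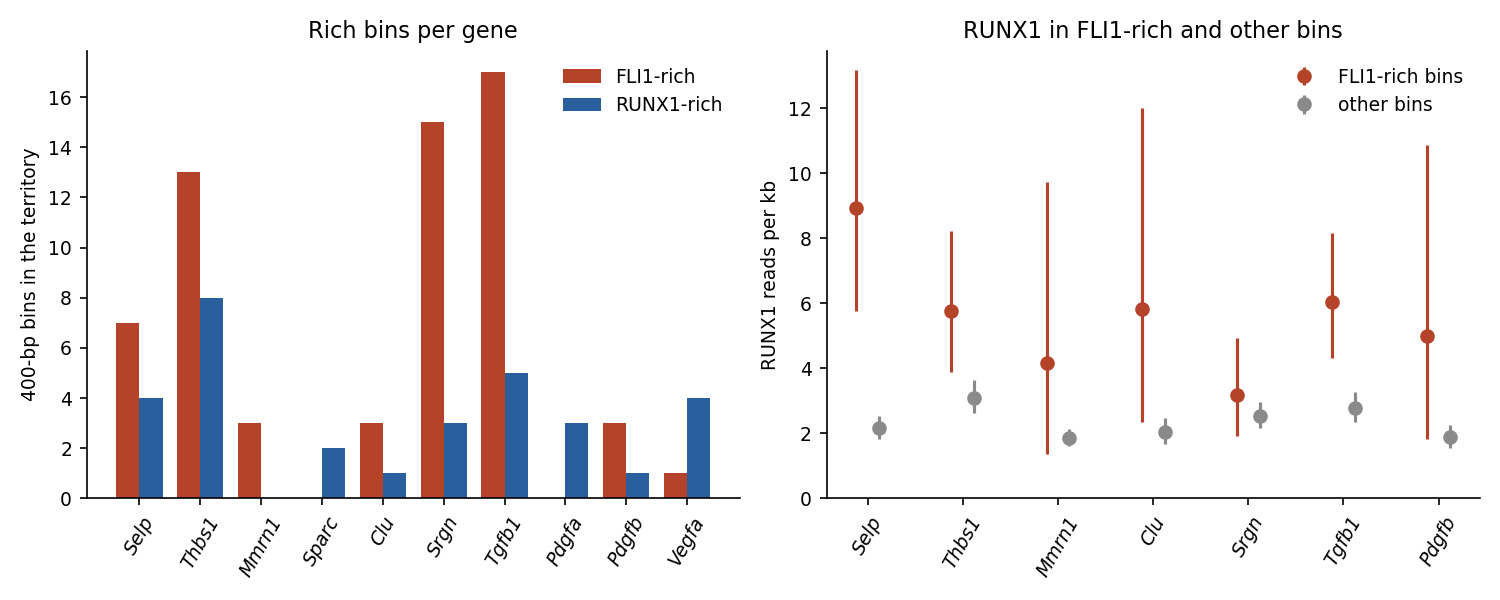
Left, number of FLI1-rich and RUNX1-rich 400-bp bins in each territory; right, RUNX1 reads per kb in FLI1-rich and in other bins with 95% counting intervals, for genes with at least 3 FLI1-rich bins. RUNX1 is 8.93 reads per kb in the FLI1-rich bins of Selp and 3.17 in those of Srgn, beside 2.17 and 2.54 elsewhere.

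Set beside other genes by the FLI1 ratio at the record start, the 10 members (median 1.61) were near 26 other alpha-granule genes (median 1.55). Of those 26, 10 were at 2-fold or more, beside 25.2% of all genes. Some of the 26 are also among the MK markers, so those lists are not separate sets. The highest of those were Itga2b at 5.50, Pf4 at 4.25 and Treml1 at 2.96, and the lowest Egf at 0.855 and Ccl5 at 0.597. Among 17 paralogs of the members the median was 1.11. The highest was Emilin1 at 2.46, Thbs3 stood at 1.58, and the lowest were Pgf at 0.656 and Vegfb at 0.643. RUNX1 was 2-fold or more at 2 of the 26 other alpha-granule genes and 1 of the 17 paralogs, beside 16.7% of all genes.

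**Figure D5:**
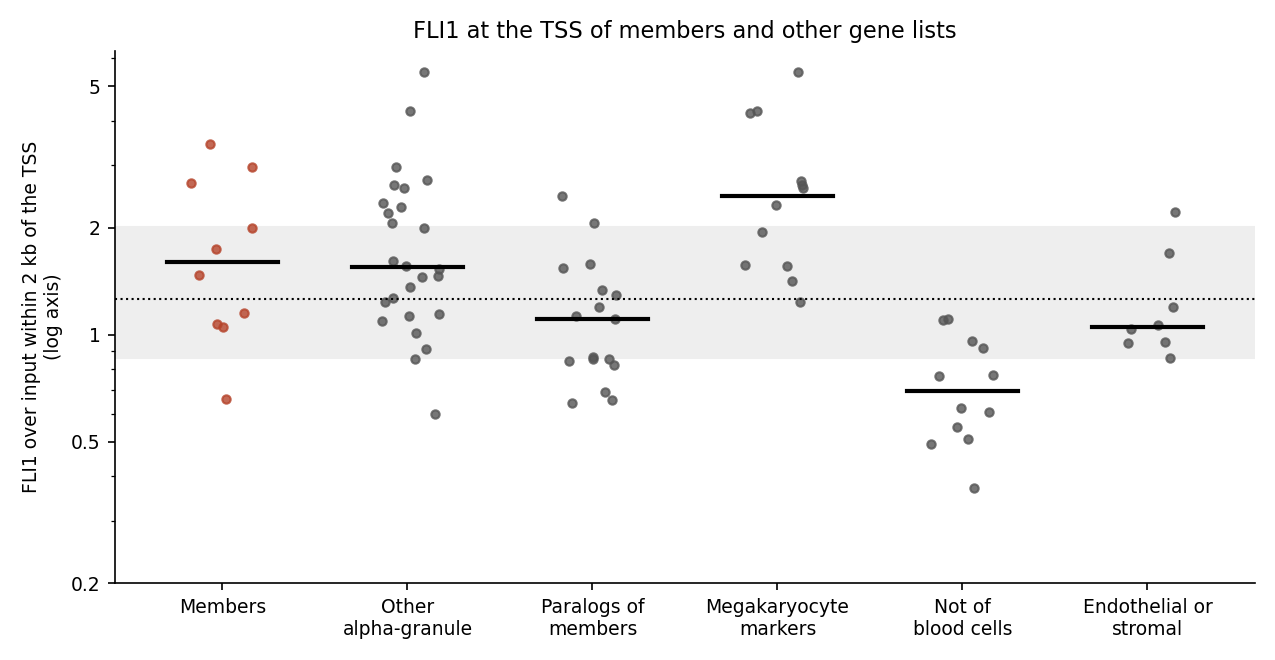
FLI1 over input within 2 kb of the record start (log axis), 1 point per gene, for the 10 members and 5 other lists, with bars at list medians and the quartiles and median of all 21877 scored genes as a band and dotted line. Member values run from 0.661 (Sparc) to 3.44 (Tgfb1), and genes of tissues outside blood lie lowest with a median of 0.694. The other alpha-granule and MK marker lists share some genes.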

How the data were processed

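Reads of mature MKs came from 1 FLI1, 1 RUNX1 and 1 input library, grouped by their labels. Bowtie was used by the authors to place reads on mm9 (its version is not given; the submitters' processing notes also list SICER 1.1 and MACS 1.4), and reads with a single location were retained once each. The deposited values are the position and strand of every read, and no normalized unit. Neither ChIP file repeats a position, but 3.24% of input reads do; these repeats and mitochondrial reads were left out. All reads were counted here, with the 5′ end moved 75 bp inward, and scaled to the reads used (Python 3.11.15, numpy 2.4.6, scipy 1.17.1). FLI1 and RUNX1 reads were 50 bp and input reads 34 bp long. GENCODE M1 gave the genes on mm9.

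Ratios carry exact binomial and counts exact Poisson 95% intervals. No p-value was computed. Percentiles are over protein-coding genes. Words were searched within 50 bp of each summit. Sequences come from the mm9 genome; RefSeq promoter tables are on another build and were not used. Bin calling and intervals were tested on simulated reads. Named genes are the members, their paralogs, neighbors whose start lies within 2 kb of a FLI1-rich bin or whose intron holds a site, and from each comparison list the 3 highest and 2 lowest FLI1 ratios. A gene that this rule names is not reported here. The members and all lists were chosen with earlier results of these data known. The alternatives tried changed the TSS window and start, the fold and read limits, the bin grid and width, the territory, the reference, the scaling, the shift, repeated input positions, the FLI1 depth and the RUNX1 strands.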

Additional observations from a re-analysis of the deposited data

How the results depend on the processing

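With the genome-wide mean in place of input, the members at 2-fold or more at the TSS went from 4 to 2 for FLI1 and from 5 to 1 for RUNX1, and Mmrn1 turned from above to below 1 for both, at 0.646 and 0.941. The number of FLI1-rich bins, 62, was 120 at a 2-fold and 28 at a 5-fold limit, 106 with 200-bp and 38 with 800-bp bins, and 50 to 86 under the other alternatives. RUNX1-rich bins, 31, were 53 with at least 4 reads and 7 with at least 7. The RUNX1 ratio between FLI1-rich and other bins, 2.50, was 3.91 with a 5-fold limit for FLI1-rich bins. It was 2.48 with plus-strand RUNX1 reads alone, so that both ends of a fragment could not count. The causes were not tested. In all, 26 alternatives on these counts and on that ratio, those within range above included, stayed within 1.5-fold or within the interval. For the FLI1 and RUNX1 ratios of single genes, 9 alternative values beside the 2 of Mmrn1 above lay outside the interval, through the 1-kb window, the start with most FLI1 reads or FLI1 thinning. With no replicates, none could be left out. No paired analysis was possible because each antibody has 1 library. RUNX1 depth limits single sites to those with 5 or more reads, and FLI1 to bins of 41 or more.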
